A study of Drosophila melanogaster with 42 samples.

Results

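The genes for the protein components of the mitochondrial ribosome were followed as a family on 42 Affymetrix Drosophila 2.0 arrays. Members were all probesets, the groups of probes that read 1 transcript, that name a single gene with a symbol of mRpL or mRpS and a number. This rule gave 71 probesets for 69 genes, out of 18769 probesets and 11982 named genes. By symbol, 44 genes are named for the large subunit (mRpL) and 25 for the small subunit (mRpS). mRpS11 and mRpL47 had 2 probesets each, and 2 further probesets, for mRpS10 and mRpL53, also name other genes and were left out.

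Each array held RNA from a pool of whole female flies, and 3 arrays, which the methods call biological replicates, made up each of 14 groups at days 10 and 40 of age. In a yw/w1118 background, flies with the ELAV-GeneSwitch driver, active in neurons when RU486 is fed, and the dSir2 EP2300 insertion received RU486 from eclosion (dSir2 overexpressing flies), diluent alone on food labelled normal (dSir2 controls) or diluent on restricted food (yw/w1118 DR flies). Flies with the same driver and the dominant negative Dmp53 transgene received RU486 (DN-Dmp53 flies, labelled p53 knockdown) or diluent (DN-Dmp53 controls) on food labelled normal. Canton-S flies, for which the labels name no construct, were kept on food labelled normal or on restricted food. For the dSir2 line and the DR comparisons the paper calls these foods high calorie and low calorie. For the dSir2 overexpressing flies the paper states high calorie food, as for their controls. Its methods refer to the life span experiments for both transgenic lines, and those used regular cornmeal food. The dSir2 controls are the control arrays of both yw/w1118 DR and dSir2 overexpression at each age, so these comparisons are not independent, and the effect of a transgene cannot be told apart from that of feeding RU486.

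The mitochondrial ribosome makes the few respiratory chain subunits that mitochondrial DNA encodes. Its RNA comes from mitochondrial DNA, while all of its proteins are encoded in the nucleus, made in the cytosol and imported. Most members with low numbers descend from bacterial ribosomal proteins and form the core of the particle. Most members with higher numbers have no counterpart in bacteria, and many lie on its surface, but the number alone does not settle this for every protein. Of the 69 genes, 40 carry a number shared with bacterial proteins and 29 a number beyond them.

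All members were expressed in every group. Their deposited log2 values lay between 8.65 and 13.14 on single arrays, far above the lowest value on the arrays, 2.11, and all passed the filter on low values in every comparison. The family varied little among the groups. The range of the 14 group means had a median of 0.53 log2 units over the members, with middle 50% from 0.45 to 0.61, while the 4590 genes with an average level at or above the lowest member, the members among them, had a median of 0.90, with middle 50% from 0.62 to 1.34. The range stayed under 1 log2 unit for 68 of the 69 members (98.6%), compared with 56.9% of the genes of like level. The exception was mRpS5, a core protein of the small subunit, with a range of 1.53. The next widest ranges were those of mRpL51 (0.87), mRpL55 (0.81) and mRpL3 (0.80), and the narrowest was that of mRpL9 (0.23). Replicate arrays were about as far apart for the members as for other genes, with a median SD within groups of 0.123 against 0.132.

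Members moved together from array to array within groups. After each group's mean was removed, the correlation of 2 members across the 42 arrays had a median of 0.493 over 2346 pairs, and 95.7% of the pairs were above 0. Pairs of other genes of like level had a median of 0.0217 and members with other genes one of 0.0155. The points share arrays and normalization, and these values are a description of the deposited levels. Across the 14 group means the pairs of members had a lower median, 0.284, against 0.0946 for pairs of other genes. The shared movement showed in the median of the members on each array, given as the deviation from each gene's average over all arrays. In dSir2 overexpressing flies at day 10 this median was 0.18, 0.17 and −0.06 on replicates 1, 2 and 3. It was 0.18, 0.16 and −0.06 in DN-Dmp53 controls at day 10 and 0.08, 0.10 and −0.08 in DN-Dmp53 flies at day 10. Replicate 3 was the lowest array in each of these groups.

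**Figure D1:**
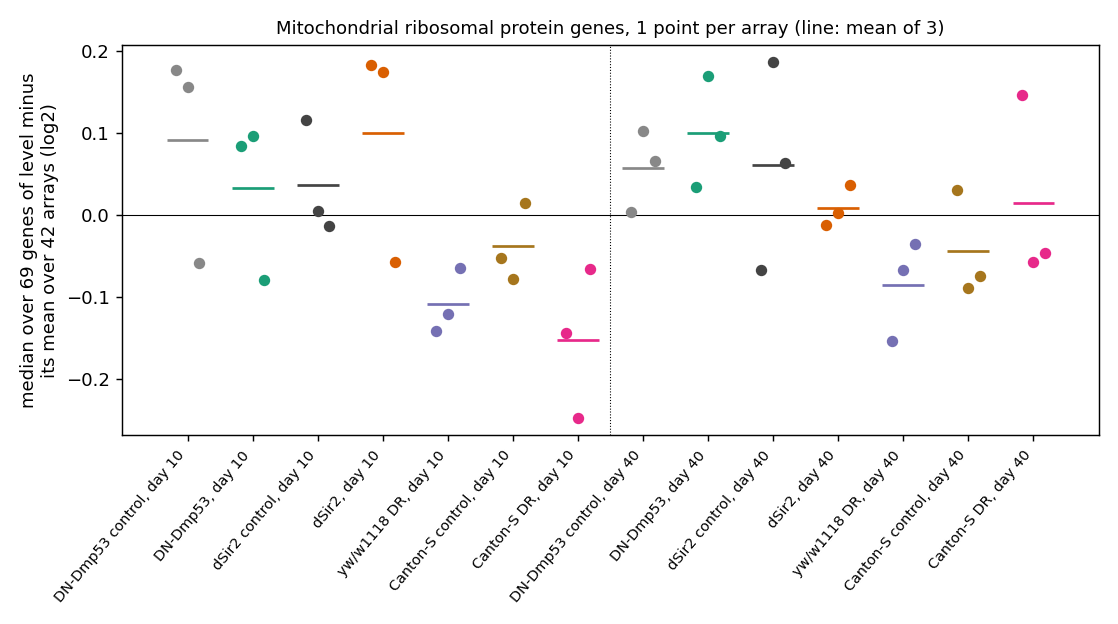
Median over the 69 members of the log2 level minus the gene's mean over 42 arrays, for each array (points) and the mean of 3 arrays (lines) in the 14 groups. At day 10 the yw/w1118 DR arrays, from −0.14 to −0.06, lie below the dSir2 control arrays, from −0.01 to 0.12, while the Canton-S DR and control arrays overlap.

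Dietary restriction in the yw/w1118 background at day 10 gave members that fell by small amounts, in a share near that of all genes. At an adjusted p under 0.05 (limma, Benjamini-Hochberg adjustment over all probesets tested), 22 of the 69 members were lower in DR flies and 2 were higher, whereas 34.3% of all genes tested were lower and 25.5% higher. With a change above 1.5-fold asked for as well, 1 member, mRpL3, remained, where 33.1% of all genes passed, and it too was under 1.5-fold without DR replicate 1 or with the arrays scaled otherwise. The median change of the members was −0.15 log2 units, beside −0.18 for genes of like level, and 58 of the 69 were below 0. With each array centred on its expressed probesets the median was −0.03 with 36 of the 69 below 0, and with quantile normalization run again it was −0.04 with 45 below 0. The changes of the members spread less than those of the genes of like level, with quartiles at −0.25 and −0.07 against −0.45 and 0.18. The groups did not overlap for 38 members, where 67.8% of all genes had groups that did not overlap.

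The largest fall was that of mRpL3, whose bacterial homologue lies next to the peptidyl transferase centre of the large subunit. Its log2 level was 10.31, 10.07 and 10.12 in the 3 dSir2 controls and 9.33, 9.57 and 9.63 in the 3 DR arrays. All DR arrays lay below all controls, with a log2 change of −0.66 ± 0.11 (SE, n = 3 per group, limma adjusted p = 0.0066), and the adjusted p stayed below 0.05 without any 1 array. mRpS23, a small subunit protein absent from bacteria, was at 10.90, 10.67 and 10.75 in controls and 10.29, 10.21 and 10.34 in DR flies. Its fall of 0.49 ± 0.071 (limma adjusted p = 0.0047) again left no overlap. mRpL11 and mRpL10, which belong to the stalk base where translation factors bind, fell by 0.45 and 0.42. mRpL11 stood at 9.70, 9.63 and 9.54 in controls and at 9.10, 9.16 and 9.26 in DR flies, so that the lowest control exceeded the highest DR array. mRpL46, mRpL21, mRpL54, mRpL17, mRpL4, which lines the exit tunnel in bacteria, and mRpS18A fell by 0.41, 0.37, 0.35, 0.34, 0.32 and 0.32. mRpL43, named here after its values were seen, had the smallest adjusted p of the members (0.0022) with a fall of 0.42. The call for mRpL46 was lost without DR replicate 1 (adjusted p = 0.0503) and that for mRpS18A without DR replicate 2 (adjusted p = 0.0556).

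The 2 members that rose were mRpS9, a core protein of the small subunit that reaches toward the decoding site in bacteria, and mRpL28. mRpS9 was at 10.86, 10.90 and 10.79 in controls and 11.17, 11.09 and 11.21 in DR flies, a change of 0.31 ± 0.044 (SE, limma adjusted p = 0.0047). mRpL28 was at 11.09, 11.06 and 11.14 in controls and 11.35, 11.32 and 11.30 in DR flies, a change of 0.23 ± 0.025 (limma adjusted p = 0.0024). Both sets of arrays were tight and did not overlap, and both calls held without any 1 array. The balance of rises and falls moved with the scaling. Centring each array on its probesets above a log2 mean of 6, which raised the median change of all genes from −0.01 to 0.11, gave 8 members higher and 16 lower, and quantile normalizing the values again gave 5 and 14. The 16 were all among the 22, and mRpS9 and mRpL28 stayed higher.

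Markers of other tissues differed between the same arrays. Of 15 female germline genes, 9 were lower in the DR flies and 3 higher, with a median of −0.53. Their summed level, on a linear scale, was 80425 to 82667 in the 3 controls and 61979 to 64315 in the 3 DR arrays. All 13 muscle genes were higher, with a median of 1.47 and sums of 19295 to 25196 in controls and 46726 to 51777 in DR flies. All 6 photoreceptor genes and 5 of 10 midgut genes were higher as well. No gene of these lists was at the floor on every array. Of 10 genes of male organs none had a log2 mean over all arrays above 6, in flies labelled female. Their sums were 43 on the arrays of both groups here. The highest sums elsewhere were 210 in Canton-S controls, 165 in DN-Dmp53 flies and 98 in Canton-S DR flies, all at day 40. In RNA from whole flies, fewer cells of a type and less RNA per cell cannot be told apart, and the part of these tissues in the change of the members was not tested.

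Dietary restriction in Canton-S flies at day 10 shared no arrays with that comparison. Of the 69 members, 17 were lower and 4 higher at a limma adjusted p under 0.05, against 33.4% and 24.8% of all genes, and none passed with a change above 1.5-fold, where 35.3% of all genes did. The median was −0.12, beside −0.17 for expressed genes, and 53 members were below 0, or 35 with centred arrays and 37 with quantile normalization run again. Groups did not overlap for 39 members, where 66.4% of all genes had groups that did not overlap. Centred arrays gave 10 higher and 13 lower, with a median of −0.001 for the members, and quantile normalizing again gave 10 and 12. Centring raised the median change of all genes from −0.003 to 0.113.

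mRpL39, a large subunit protein without a bacterial counterpart, fell most. It was at 10.52, 10.43 and 10.65 in controls and 9.97, 9.89 and 10.03 in DR flies, a clear gap, with a change of −0.57 ± 0.070 (SE, n = 3 per group, limma adjusted p = 0.0030). mRpL3 was at 9.96, 9.92 and 10.05 in controls and 9.57, 9.22 and 9.59 in DR flies. Its change of −0.51 ± 0.12 (limma adjusted p = 0.0198) kept the groups apart but was lost without any 1 of the 3 control arrays (adjusted p from 0.0537 to 0.0652). mRpL21 and mRpS17 fell by 0.46 and 0.39, and mRpL51 fell by 0.34. mRpS29, known in mammals as the GTP-binding protein DAP3, fell by 0.31, from 10.52, 10.53 and 10.60 to 10.30, 10.22 and 10.21 (limma adjusted p = 0.0027). The risers were mRpS9, mRpL28, mRpS31 and mRpL1, the last named after its values were seen, with changes of 0.56, 0.39, 0.24 and 0.13. mRpS9 was at 10.952, 10.894 and 11.005 in controls and 11.45, 11.35 and 11.73 in DR flies. The groups were well apart, although the call was lost without control replicate 2 (adjusted p = 0.0501). mRpL28 was at 11.22, 11.11 and 11.24 in controls and 11.57, 11.46 and 11.72 in DR flies.

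Across the backgrounds at day 10, 8 members fell in both and 2 rose in both. The fallers were mRpL3, mRpL4, mRpL10, mRpL17, mRpL21, mRpL38, mRpL54 and mRpS23, which are 36.4% of the 22 in yw/w1118 and 47.1% of the 17 in Canton-S, and the risers were mRpS9 and mRpL28. In Canton-S the call for mRpL54 was lost without DR replicate 1 or 2. mRpL38 is named here for the overlap alone and was no longer among the shared falls with centred arrays, which left 7 of the 8 and raised the shared rises to 5. No member passed in opposite directions. Over the 69 members the changes in the backgrounds had a Pearson r of 0.607 and a Spearman rho of 0.462, and over the 4590 genes of like level r was 0.901. In the test of the difference between backgrounds no member passed (limma, smallest adjusted p = 0.0517, with 14 of the 69 members and 23% of all genes at an unadjusted p under 0.05), where 5.98% of all genes did. The count was 1, 2 and 3 without Canton-S DR replicate 1, Canton-S DR replicate 2 and dSir2 control replicate 1. Centred arrays and quantile normalizing again each gave 1 DR change higher in Canton-S, mRpS31, and 1 lower, mRpS29. The shares of all genes for these scalings are not given. Germline and muscle markers moved in Canton-S flies as well. Of the 15 germline genes 9 were lower and 2 higher, with sums of 76370 to 79702 in controls and 52652 to 55919 in DR flies. Of the 13 muscle genes 12 were higher, with sums of 11109 to 14740 and 37093 to 40158, and the part of these tissues was not tested.

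**Figure D2:**
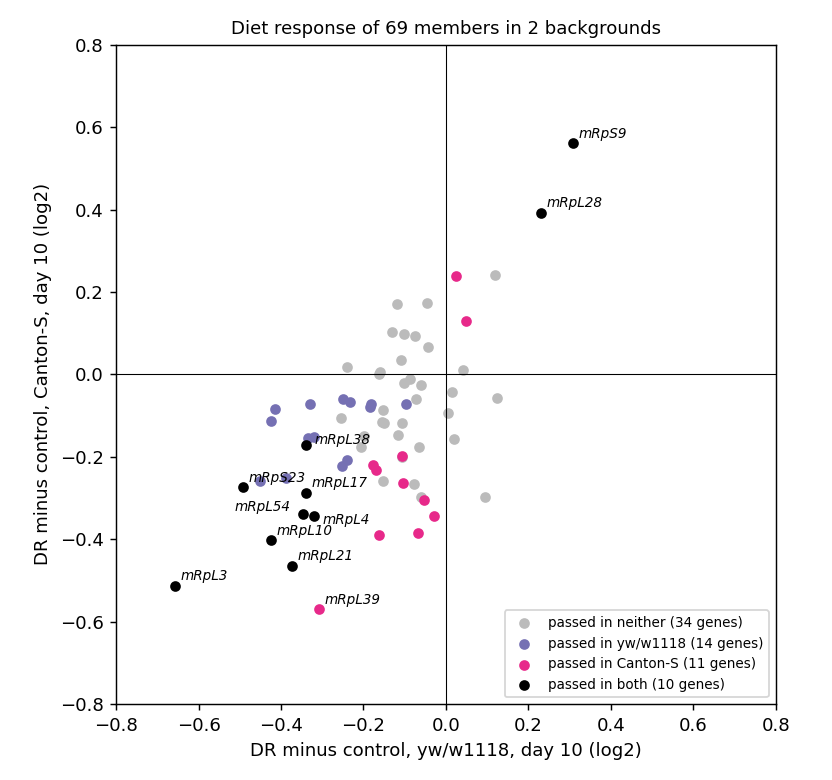
Log2 change of each member under DR at day 10 in yw/w1118 (horizontal axis) and in Canton-S (vertical axis), with colours for members that passed adjusted p under 0.05 in neither (34), in yw/w1118 alone (14), in Canton-S alone (11) and in both (10). mRpL3 sits at the lower left and mRpS9 and mRpL28 at the upper right, and most members lie near and below 0.

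The other parts of the mitochondrial expression system were described beside the ribosome. Of 14 mitochondrial aminoacyl-tRNA synthetases, which charge the tRNAs used inside mitochondria, 12 were lower and 1 higher under yw/w1118 DR at day 10, with a median of −0.58. In Canton-S flies at day 10, 8 were lower and 1 higher, with a median of −0.41. ValRS-m fell by 1.12 and 1.09 in the 2 backgrounds. Of 12 mitochondrial translation factors, 9 were lower and 1 higher in yw/w1118 (median −0.44) and 7 were lower and 1 higher in Canton-S (median −0.39). mRRF2, a GTPase that acts in ribosome recycling, fell by 0.95 and 0.89. By the same rule 34.3% of all genes were lower and 25.5% higher in yw/w1118, and 33.4% and 24.8% in Canton-S. The medians of both lists were further below 0 than those of the ribosomal members, −0.15 and −0.12, and the difference between lists was not tested.

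Subunits of oxidative phosphorylation, the machinery to which the products of the mitochondrial ribosome belong, were mostly higher in 4 comparisons. In yw/w1118 DR flies at day 10, 47 of 62 tested were higher and 0 lower, with a median of 0.31, and SdhC of complex II rose by 0.63. In Canton-S DR flies 44 of 64 were higher and 1 lower at day 10, and 42 of 65 were higher and 0 lower at day 40, with medians of 0.31 and 0.35. In dSir2 overexpressing flies at day 10, 36 of 64 were higher and 0 lower, with a median of 0.38. The shares of all genes higher in these 4 comparisons were 25.5%, 24.8%, 18.2% and 12.5%, and the shares lower 34.3%, 33.4%, 21.1% and 14.9%. The ribosomal members in those 4 comparisons had medians of −0.15, −0.12, 0.08 and 0.05. Of the cytosolic ribosomal proteins, 8 of 36 were higher and 1 lower in yw/w1118 DR flies at day 10, where 25.5% of all genes were higher. In Canton-S DR flies at day 10, 12 of 39 were higher and 2 lower, where 24.8% of all genes were higher. The genes tko and bonsai, which encode mitochondrial ribosomal proteins S12 and S15 under other names and stood outside the rule, passed in none of the 15 comparisons, with changes from −0.17 to 0.17.

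**Figure D3:**
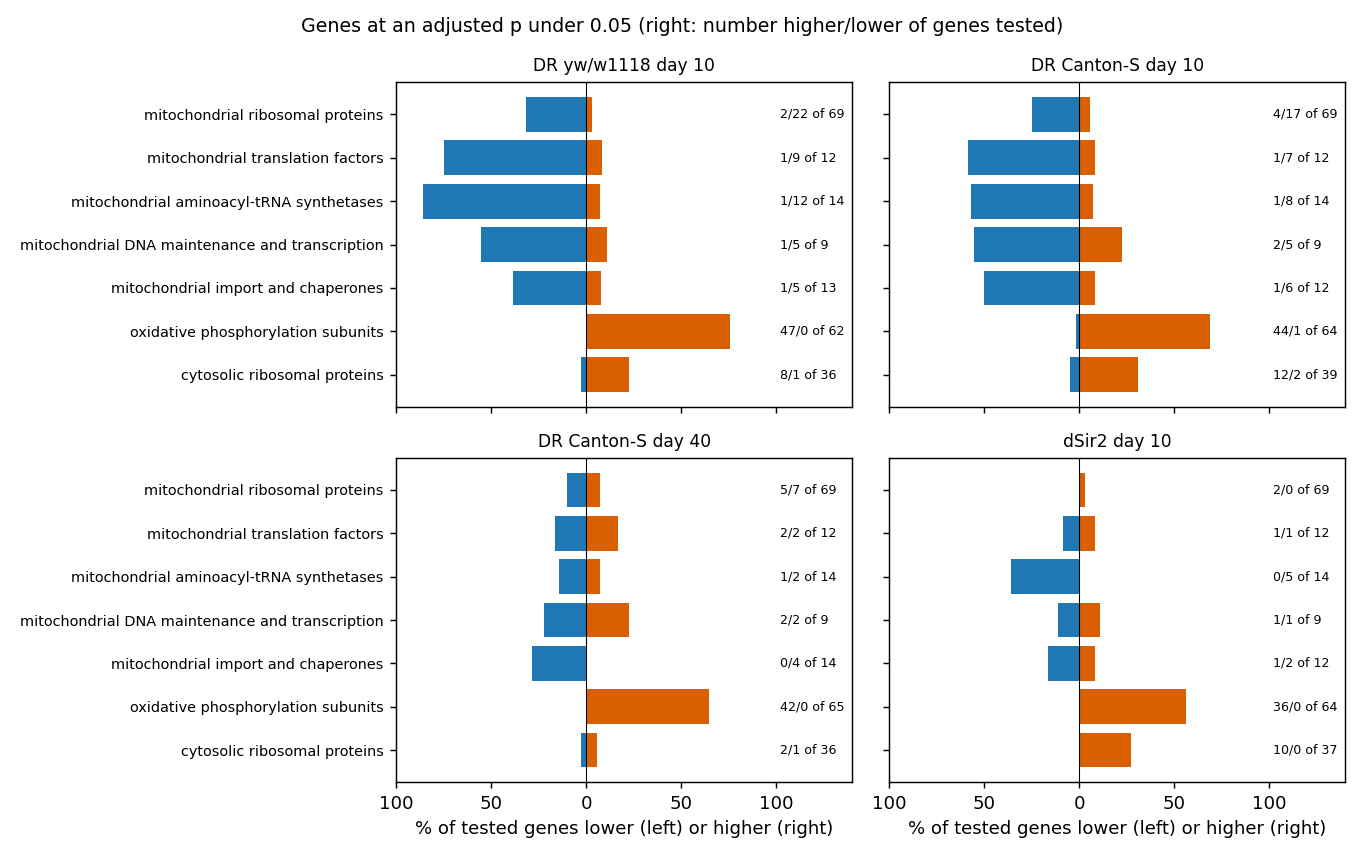
Share of the tested genes of 7 lists that were lower (to the left of 0) or higher (to the right) at adjusted p under 0.05 in 4 comparisons, in percent. Synthetases and translation factors extend mostly to the left under DR at day 10, oxidative phosphorylation subunits almost only to the right in all 4, and the ribosomal members to the left at day 10 of DR with shorter bars.

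At day 40 no member passed in yw/w1118 DR flies by limma (smallest adjusted p = 0.11), and few genes did at all, 0.124% of those tested. Before adjustment 14 members were lower and 0 higher at p under 0.05, beside 12.9% of all genes lower and 23.3% changed in either direction at that threshold, and 65 of the 69 were below 0. The median of the members was −0.14, close to that of day 10, while that of expressed genes was −0.08. Centring on expressed probesets left the members' median at −0.09. mRpL3 was at 9.80, 9.74 and 9.83 in controls and 9.62, 9.71 and 9.66 in DR flies at day 40. Every DR array was still below every control, by less than at day 10, but mRpL3 did not pass, and other members had groups that did not overlap as well. The test of DR by age gave 0.53 for mRpL3 (limma adjusted p = 0.0345), the only member to pass, where 8.44% of all genes did. That call was lost without any 1 of 8 of the 12 arrays, all but DR day 40 replicates 1 and 3, DR day 10 replicate 3 and control day 10 replicate 2.

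Canton-S DR flies at day 40 had 5 members higher and 7 lower at a limma adjusted p under 0.05, where 18.2% and 21.1% of all genes passed. The sign of the median, 0.08, differed from that of day 10, and 40 of the 69 members were above 0, while expressed genes had a median of −0.10. Centred arrays gave 12 higher and 4 lower and quantile normalizing again gave 7 and 4. Centring raised the median change of all genes from 0 to 0.105. mRpL3 was at 9.77, 9.88 and 9.95 in controls and 9.33, 9.37 and 9.40 in DR flies, a change of −0.50 ± 0.052 (SE, n = 3 per group, limma adjusted p = 0.0052). The DR arrays of mRpL3 lay together below all controls, as at day 10, and its call, like those of mRpL17 (−0.49) and mRpL2 (0.27), held without any 1 array. mRpL2, like mRpL3, belongs to the peptidyl transferase region in bacteria.

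The largest fall at day 40, and the only change of a member above 1.5-fold in this comparison, where 26.3% of all genes passed, was that of mRpS5. It was at 12.18, 12.30 and 12.48 in controls and 10.89, 11.62 and 11.62 in DR flies, a change of −0.94 ± 0.24 (SE, limma adjusted p = 0.0396). DR replicate 1 lay well below the other DR arrays, and the call was lost without any 1 of the other 5 arrays, with adjusted p from 0.0611 to 0.126, and also without the filter on low values. mRpL51, a large subunit protein with no bacterial counterpart, went from 10.32, 10.07 and 10.07 in controls to 10.74, 10.51 and 10.61 in DR flies, a change of 0.47 (limma adjusted p = 0.0254). mRpS9 and mRpL28 were again higher, by 0.38 and 0.40, and mRpL42 by 0.30. These rises rested on few arrays: mRpL28, mRpL42 and mRpL51 were lost without control replicate 2 or 3 or DR replicate 3, and without 1 further array each (control replicate 1 for mRpL28, DR replicate 1 for the others), and mRpS9 without any 1 of 5, all but control replicate 3. Without control replicate 2 or control replicate 3, or without DR replicate 3, the counts of members higher and lower fell from 5 and 7 to 1 and 2, 2 and 3, and 1 and 4. Among the markers, 5 of the 15 germline genes were lower and 2 higher, with sums of 56405 to 66791 in controls and 43785 to 50796 in DR flies, and 10 of the 13 muscle genes were higher, with sums of 12997 to 15698 and 25546 to 30438, and their part was not tested.

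The response of mRpL51 to DR in Canton-S flies differed between ages. At day 10 it was at 10.24, 10.22 and 10.41 in controls and lower, at 9.98, 9.85 and 10.01, in DR flies, whereas at day 40 the DR arrays were the higher ones. The difference between the ages was 0.81 ± 0.13 (SE, limma interaction term, adjusted p = 0.00858), and no single one of the 12 arrays was needed for the call. mRpL55, mRpS29 and mRpL42 also passed this test with differences of 0.56, 0.47 and 0.39, so that 4 members differed, all upward, where 5.27% of all genes differed upward and 6.49% downward. The count was 1 or 2 without any 1 of the Canton-S arrays of day 10 other than DR replicate 3, and 2 without day 40 control replicate 2 or 3. Between the backgrounds at day 40, mRpL3 alone passed, with a DR change lower by 0.37 ± 0.064 in Canton-S (limma interaction term, adjusted p = 0.0248), where 5.81% of all genes passed. The call was lost without yw/w1118 DR replicate 2 or without replicate 2 or 3 of either control group.

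Neuronal overexpression of dSir2, a deacetylase that needs NAD, left most members near their controls at day 10. By limma, 2 of the 69 were higher and 0 lower, where 12.5% of all genes were higher and 14.9% lower. None passed 1.5-fold, where 12.3% of all genes did. The risers were mRpS9 and mRpS17. mRpS9 was at 10.86, 10.90 and 10.79 in controls and 11.43, 11.43 and 11.16 in dSir2 flies, a change of 0.49 ± 0.088 (SE, n = 3 per group, limma adjusted p = 0.0228). mRpS17 was at 10.40, 10.23 and 10.22 in controls and 10.58, 10.58 and 10.52 in dSir2 flies, a change of 0.28 ± 0.058 (limma adjusted p = 0.0334). In both cases every dSir2 array was above every control. The count rested on single arrays: it rose to 13, all higher, without dSir2 replicate 3, and was 0 without dSir2 replicate 1 or 2 or control replicate 2 or 3. Centred arrays gave 10 higher and 0 lower, and the median of the members moved from 0.05 to 0.13, while that of all genes moved from −0.0005 to 0.085. Of the germline genes 4 were lower and 1 higher, with sums of 64630 to 68178 in dSir2 flies against 80425 to 82667 in controls. Of the 13 muscle genes 11 were higher, with sums of 26370 to 38304 against 19295 to 25196, and the part of these tissues was not tested.

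At day 40 no member passed for dSir2, with a smallest limma adjusted p of 0.349, and 0% of all genes passed. Before adjustment 3 members were lower and 0 higher at p under 0.05, beside 5.96% and 5.45% of all genes. mRpS9 was then at 11.15, 11.37 and 11.33 in controls and 11.28, 11.27 and 11.23 in dSir2 flies, overlapping groups. The test of dSir2 by age gave a difference of −0.52 for mRpS9 (limma adjusted p = 0.0372), 1 member where 6.92% of all genes passed, and the call was lost without any 1 of 10 of the 12 arrays, all but control day 40 replicate 1 and dSir2 day 10 replicate 3. DN-Dmp53 flies had no member past the threshold at either age. At day 10 the smallest limma adjusted p was 0.244, 3.99% of all genes passed, and before adjustment 2 members were lower and 0 higher at p under 0.05, beside 9.14% and 10.8% of all genes. At day 40 it was 0.22, 0.0104% of all genes passed, and before adjustment 8 members were higher and 1 lower, beside 8.97% and 6.26% of all genes. The median changes were −0.07 and 0.08. In the test of DN-Dmp53 by age no member passed (smallest limma adjusted p = 0.119, with 7 members and 18.5% of all genes at an unadjusted p under 0.05), where 2.22% of all genes did. With the replicate number, which pairs these arrays, as a block, 1 member passed, mRpS7, which was higher and is named after its values were seen. The count was 1 without control day 40 replicate 1 and 2 without control day 10 replicate 3.

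Between days 10 and 40 members passed in both directions in every line but Canton-S controls, where all that passed were lower. In dSir2 controls 8 were higher and 6 lower at day 40 by limma at an adjusted p under 0.05, where 20.7% of all genes were higher and 30.3% lower. In dSir2 overexpressing flies 5 were higher and 10 lower (13.6% and 17.9% of all genes), in yw/w1118 DR flies 5 and 4 (6.67% and 10.8%), and in DN-Dmp53 controls 6 and 9 (15.6% and 19.5%). DN-Dmp53 flies had 6 higher and 2 lower (12.5% and 12.7%), Canton-S controls 0 and 4 (10.7% and 10.9%), and Canton-S DR flies 5 and 1 (8.57% and 7.14%). The median changes with age ran from −0.09 in dSir2 overexpressing flies to 0.17 in Canton-S DR flies. Centred arrays gave 17 higher and 2 lower in dSir2 controls, 8 and 9 in dSir2 flies and 8 and 2 in yw/w1118 DR flies. They gave 11 and 6 in DN-Dmp53 controls, 9 and 2 in DN-Dmp53 flies, 0 and 2 in Canton-S controls and 7 and 1 in Canton-S DR flies. Centring raised the median change of all genes in every line as well, most in dSir2 controls, from −0.007 to 0.118. The shares of all genes passing with centred arrays are not given here. More germline markers were lower than higher with age in every line, from 11 of 15 lower and 0 higher in dSir2 controls to 3 lower and 1 higher in Canton-S DR flies, and their part in the members' changes was not tested.

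These counts rested on few arrays, and leaving out 1 array moved them by over 1.5 times in every line. In dSir2 controls they became 4 higher and 2 lower without day 40 replicate 3, 4 and 3 without day 10 replicate 2 and 5 and 3 without day 10 replicate 3. In dSir2 flies any 1 of the 6 arrays moved them, from 3 and 1 without day 10 replicate 2 to 5 and 18 without day 10 replicate 3. In yw/w1118 DR flies all arrays but day 40 replicate 1 did, down to 0 and 0 without day 10 replicate 2. In DN-Dmp53 controls day 40 replicates 2 and 3 and day 10 replicates 1 and 2 did, down to 2 and 1 without day 40 replicate 2. In DN-Dmp53 flies all but day 10 replicate 3 did, down to 0 and 0 without day 10 replicate 2. In Canton-S controls any 1 of the 6 did, to 0 and 2 or 1 and 1, and in Canton-S DR flies any 1 of the day 10 arrays did, down to 1 and 0 without replicate 1.

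Among the rises with age, mRpL51 passed in 3 lines. In dSir2 controls it went from 10.24, 10.05 and 10.05 at day 10 to 10.55, 10.93 and 10.80 at day 40, a change of 0.64 ± 0.12 (SE, n = 3 per group, limma adjusted p = 0.0122) and the only member above 1.5-fold there, where 32.6% of all genes passed, though not without day 40 replicate 2. In yw/w1118 DR flies it went from 10.02, 10.08 and 10.16 to 10.59, 10.72 and 10.61, a change of 0.56 ± 0.056 (limma adjusted p = 0.0129, lost without day 10 replicate 2). In Canton-S DR flies it rose by 0.67 ± 0.078 (limma adjusted p = 0.0143, lost without day 10 replicate 1 or 2). Old and young arrays did not overlap in any of these lines. In Canton-S controls, in contrast, mRpL51 was at 10.24, 10.22 and 10.41 at day 10 and 10.32, 10.07 and 10.07 at day 40, and the age change there was lower than in dSir2 controls by 0.78 (limma interaction term, adjusted p = 0.00833), which held without any 1 of the 12 arrays. mRpS9 rose with age in dSir2 controls by 0.43 (limma adjusted p = 0.0078), and mRpS11 by 0.27, mRpL23 of the exit tunnel by 0.28, mRpL2 by 0.25 and mRpL28 by 0.26. The calls for mRpL51, mRpS9 and mRpS11 held in dSir2 controls without any 1 array, and those for mRpL23, mRpL2 and mRpL28 were among those lost without day 40 replicate 3 or day 10 replicate 2.

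Other members fell with age. mRpL12, which forms the stalk that recruits translation factors, was at 12.17, 12.19 and 11.87 in DN-Dmp53 controls at day 10 and 11.55, 11.44 and 11.53 at day 40, a change of −0.57 (limma adjusted p = 0.0175, lost without day 40 replicate 2 or 3 or day 10 replicate 1 or 2). In dSir2 overexpressing flies it went from 11.99, 12.10 and 12.00 to 11.57, 11.44 and 11.66, a change of −0.47 (limma adjusted p = 0.0124, lost without day 10 replicate 2). The ages did not overlap in either line, and mRpL12 also fell in yw/w1118 DR flies and DN-Dmp53 flies by 0.15 and 0.26, the first lost without any 1 of its 6 arrays and with centred arrays and the second without day 40 replicate 1 or 3 or day 10 replicate 1 or 2. mRpL46 fell in dSir2 controls, from 10.89, 10.63 and 10.86 to 10.19, 10.35 and 10.34, by 0.50 (limma adjusted p = 0.0120). mRpL3 fell there by 0.38, mRpL16 by 0.34 and mRpL14 by 0.32. The falls of mRpL46 and mRpL3 held without any 1 array, and those of mRpL16 and mRpL14 were lost without day 40 replicate 3 or day 10 replicate 2, among others for mRpL14. mRpL16 was at 10.71, 10.73 and 10.72 in dSir2 overexpressing flies at day 10 and 10.35, 10.40 and 10.40 at day 40, the tightest of these falls (−0.33, limma adjusted p = 0.0033). mRpL4 fell with age in dSir2 controls, dSir2 flies, DN-Dmp53 controls, DN-Dmp53 flies and Canton-S controls, by 0.26, 0.30, 0.20, 0.22 and 0.21, small steps of which each was lost without any 1 of at least 4 of its 6 arrays.

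In Canton-S DR flies the largest age changes of any member were seen. mRpL55 went from 9.72, 9.53 and 9.63 at day 10 to 10.42, 10.28 and 10.24 at day 40, a rise of 0.69 ± 0.073 (SE, n = 3 per group, limma adjusted p = 0.0118) that held without any 1 array. mRpL42 went from 8.98, 8.95 and 9.09 to 9.63, 9.51 and 9.55, a rise of 0.56 ± 0.053 (limma adjusted p = 0.0101, lost without day 10 replicate 1). Both are large subunit proteins without bacterial counterparts, and in both the ages were well apart. mRpS5 fell, from 12.51, 12.41 and 12.48 to 10.89, 11.62 and 11.62, by 1.09 ± 0.23 (limma adjusted p = 0.0468), and this call was lost without any 1 of 5 of the 6 arrays, all but day 40 replicate 1, and without the filter on low values. With mRpL51, these were the 3 members above 1.5-fold in Canton-S DR flies, mRpL51 and mRpL55 higher and mRpS5 lower, where 10.6% of all genes passed.

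Between lines, ageing of Canton-S controls and dSir2 controls differed for 11 members, 4 higher and 7 lower in Canton-S by the limma interaction term, where 18.6% of all genes were higher and 10.2% lower. Centred arrays gave 1 higher and 11 lower, and quantile normalizing again gave 1 and 9, without the shares of all genes for these scalings. The 11 fell to between 4 and 7 without any 1 of 8 arrays, namely Canton-S day 40 replicates 2 and 3, all Canton-S day 10 arrays, dSir2 control day 40 replicate 3 and dSir2 control day 10 replicates 2 and 3. mRpS22, a small subunit protein without a bacterial counterpart, was at 10.40, 10.24 and 10.20 at day 10 and 10.61, 10.61 and 10.60 at day 40 in dSir2 controls. In Canton-S controls it was at 10.37, 10.33 and 10.65 and then at 9.94, 10.18 and 10.22. The age changes thus had opposite signs, and they differed by −0.66 (limma adjusted p = 0.0103), a call that held without any 1 array, as did that for mRpL46 (0.56, adjusted p = 0.0123) in the other direction. Between DN-Dmp53 controls and dSir2 controls 2 members differed, where 9.63% of all genes did. mRpL54 rose with age in DN-Dmp53 controls, from 9.81, 9.99 and 9.68 to 10.22, 10.31 and 10.36, and was at 10.41, 10.20 and 10.26 and then 9.93, 10.31 and 10.03 in dSir2 controls. The difference of 0.67 (limma interaction term, adjusted p = 0.0273) was lost without any 1 of 10 of the 12 arrays, all but DN-Dmp53 control day 10 replicate 2 and dSir2 control day 40 replicate 2, and without DN-Dmp53 control day 10 replicate 3 the count rose to 6.

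**Figure D4:**
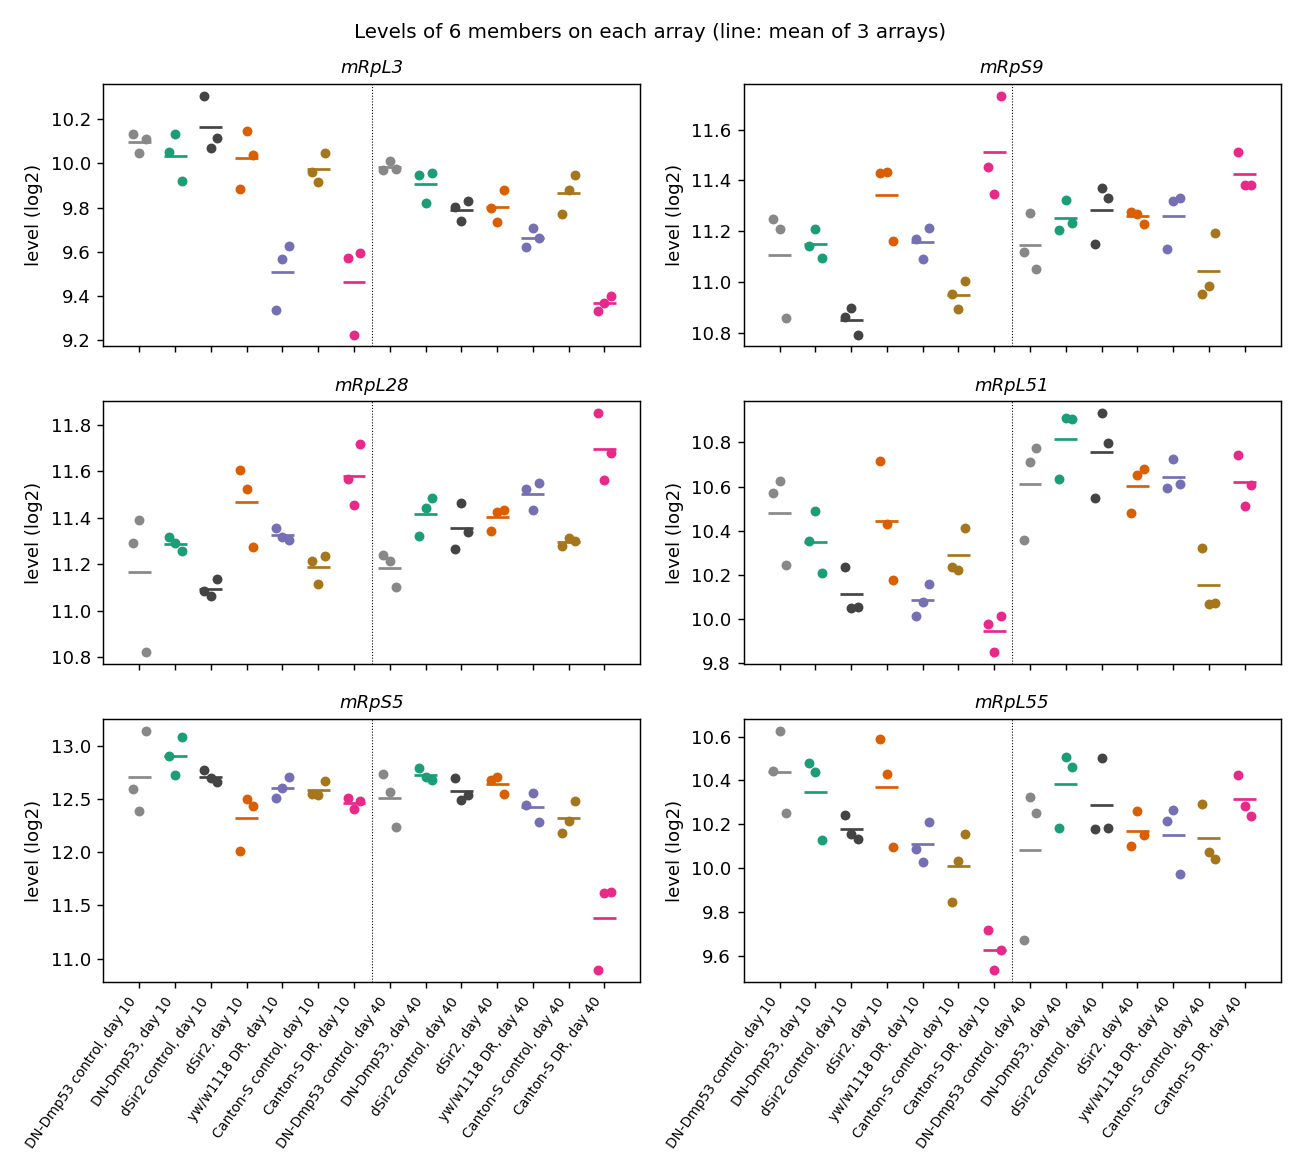
Log2 level of mRpL3, mRpS9, mRpL28, mRpL51, mRpS5 and mRpL55 on each array of the 14 groups (points), with the mean of 3 arrays (lines). mRpL3 is lowest in the DR groups at day 10 and in Canton-S DR flies at day 40, mRpS9 lowest in dSir2 and Canton-S controls at day 10, and mRpS5 lowest in Canton-S DR flies at day 40.

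Over the 15 comparisons of 2 groups, several of which share arrays, mRpL4 passed most often, in 7, always lower. mRpL3, mRpL12 and mRpS23 passed in 5 each, always lower, and mRpS9 and mRpL28 in 5 each, always higher. For mRpS9 the calls under yw/w1118 DR and dSir2 at day 10 and with age in dSir2 controls shared the dSir2 controls of day 10. Those under yw/w1118 DR at day 10 and with age in dSir2 controls did so for mRpL28 and mRpL3. That control group had the lowest mean of the 14 groups for mRpS9 and mRpL28 (10.85 and 11.10) and the highest for mRpL3 (10.17). The same 2 comparisons were among the calls of mRpL4. Its calls under Canton-S DR at day 10 and with age in Canton-S controls shared the Canton-S controls of day 10, its highest group mean (11.15). With centred arrays mRpL4 was lost with age in dSir2, DN-Dmp53 and Canton-S controls (limma adjusted p = 0.168, 0.182 and 0.0738). mRpL10 passed in 4, all lower, and mRpL2 in 4, all higher. mRpL51 rose in 4 and fell in 1, mRpS11 rose in 3 and fell in 1, and mRpS34 rose in 2 and fell in 2. At the other end 15 members passed in none, among them mRpL9, mRpS18C and mRpS21. Of the calls named here, that of mRpS11 under yw/w1118 DR at day 10 changed sign with the scaling, from −0.10 to 0.02 with centred arrays.

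Members named for either subunit were among those that changed. The classes here follow the symbols, which need not give the place of every protein. Under yw/w1118 DR at day 10, 16 of 44 large subunit genes were lower and 1 higher (median −0.17), and 6 of 25 small subunit genes were lower and 1 higher (median −0.11), where 34.3% of all genes were lower and 25.5% higher. Under Canton-S DR at day 10 the counts were 13 lower and 2 higher for the large subunit (median −0.13) and 4 and 2 for the small subunit (median −0.12), where 33.4% of all genes were lower and 24.8% higher. Proteins with numbers shared with bacteria had 14 of 40 lower and 2 higher in yw/w1118 and 9 lower and 3 higher in Canton-S. Those beyond the bacterial numbers had 8 of 29 lower and 0 higher in yw/w1118 and 8 lower and 1 higher in Canton-S. The difference between these classes was not tested.

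**Figure D5:**
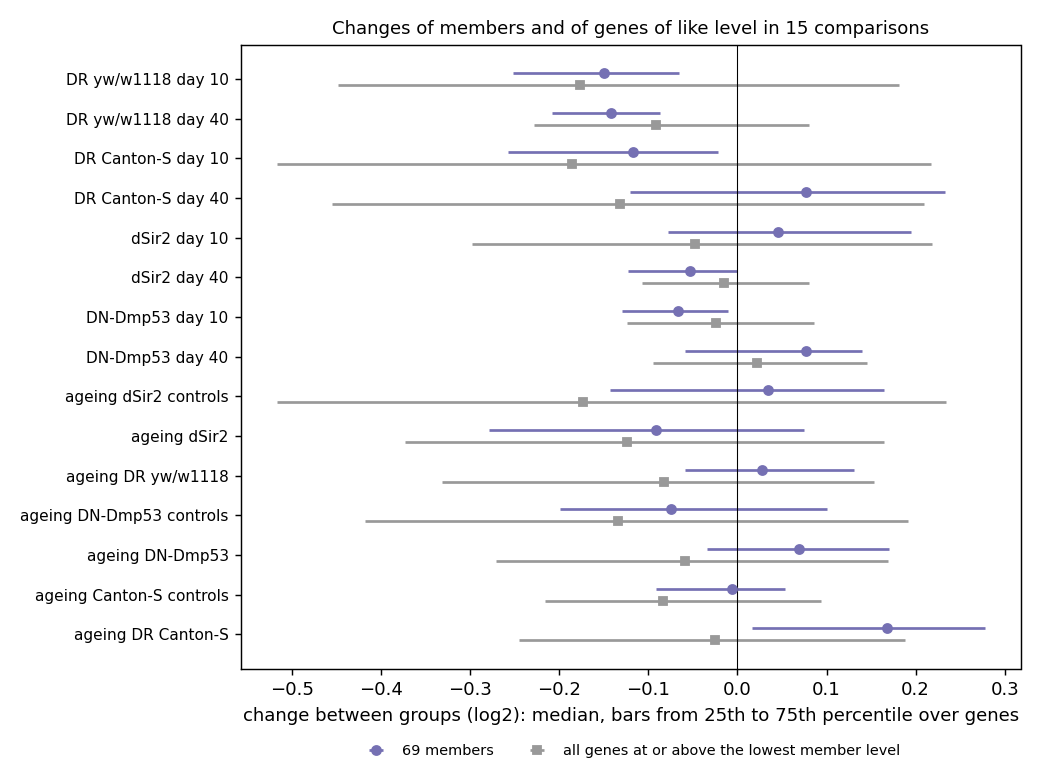
Median (points) and quartiles (bars) of the log2 change over the 69 members and over the 4590 genes of like level in the 15 comparisons. The bars of the members are the shorter ones, for example from −0.25 to −0.07 against −0.45 to 0.18 under yw/w1118 DR at day 10.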

How the data were processed

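The 42 arrays were analysed from deposited log2 expression values, 1 per probeset, for which the authors normalized the arrays by quantiles and summarised the probes with GCRMA (version not given in the sources used here). Control probesets (183 of 18952) were left out. Gene names came from the platform annotation, in which 13647 probesets name 1 gene, 402 several and 4720 have no entry. Groups came from the labels. Each comparison used its own 6 arrays, and differences between comparisons used interaction terms, with limma 3.58.1 in R 4.3.3. The methods call a probeset absent if its mean lay below the 25th percentile in both groups. Here probesets at or below that percentile in both groups were left out. This wider rule also drops probesets that lie exactly at the percentile. P-values were adjusted (Benjamini-Hochberg) over all probesets tested, and genes passed at an adjusted p under 0.05, with and without a change above 1.5-fold. Array values carry no read depth, and precision follows from the 3 arrays per group.

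Arrays correlated with the mean of their own group at 0.995 to 0.999, and 36.6 to 41.0% of values were at the floor. Replicate numbers paired arrays only for DN-Dmp53 against its controls, where deviations of same-numbered arrays correlated at 0.417 or more at day 10 and 0.199 or more at day 40. With the number as a block, no member passed at either age, as without it.

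Named genes were, in each comparison and under both call rules, up to 3 members with the largest rise and fall, members passing in the most comparisons, the 3 highest and 3 lowest in level, members with disagreeing probesets, and up to 2 genes of each other mitochondrial list. Members and lists were chosen with earlier results of these data known. The procedure was tested on simulated data with changes of 1 and 2 log2 units, in 1 comparison and under the 1.5-fold rule. Smaller changes, as most of those of the members were, were not simulated. Alternatives were other scalings, no filter, all 14 groups in 1 fit, 1 probeset per gene, a replicate block, the methods' t-test and leaving out each array.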

Additional observations from a re-analysis of the deposited data

Results flagged for a closer look

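The test of a difference between 2 effects passed with a change above 1.5-fold for 3 members (limma interaction term, log2 units). For mRpL51, the effect of DR in Canton-S flies was 0.81 higher at day 40 than at day 10, with every DR array below the controls at day 10 and above them at day 40. For mRpL51 the change with age was −0.78 in Canton-S controls relative to dSir2 controls. For mRpS22 the same difference was −0.66. For mRpL54 the change with age in DN-Dmp53 controls relative to dSir2 controls was 0.67, a call lost without the filter, with the replicate block and with quantile normalizing again. The Canton-S and dSir2 control lines differ in background, driver and insertion, which cannot be told apart. Groups of 3 arrays were too small for a check of single distant arrays.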

How the results depend on the processing

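Counts here are of members passing at an adjusted p under 0.05 and 1.5-fold, by limma unless a t-test is named, and medians are of the members' log2 changes. Without the fold minimum the counts were 24, 21 and 12 for DR at day 10 in yw/w1118, day 10 in Canton-S and day 40 in Canton-S, and 2 for dSir2 at day 10. For ageing they were 14 in dSir2 controls, 15 in dSir2 flies, 9 in yw/w1118 DR flies, 15 in DN-Dmp53 controls, 8 in DN-Dmp53 flies, 4 in Canton-S controls and 6 in Canton-S DR flies. For the differences they were 1 (DR by age in yw/w1118), 4 (DR by age in Canton-S), 1 (dSir2 by age), 1 (DR by background, day 40), 11 (ageing, Canton-S against dSir2 controls) and 2 (ageing, DN-Dmp53 against dSir2 controls). Centring gave 0 for DR in yw/w1118 at day 10 (median −0.029), 1 for Canton-S at day 10 (median −0.000989), 1 for dSir2 at day 10 (median 0.132), 1 for ageing of yw/w1118 DR flies (median 0.0875), 2 for DR by age in Canton-S and 1 for dSir2 by age. The medians were 0.183 for Canton-S DR at day 40 and 0.160 for ageing of dSir2 controls, and mRpS11 under yw/w1118 DR at day 10 turned from −0.10 to 0.024. Quantile normalizing again gave 0 for DR in yw/w1118 at day 10 (median −0.044), 1 for Canton-S at day 10 (median −0.021), 1 each for ageing of yw/w1118 DR flies and of DN-Dmp53 controls, 1 for dSir2 by age and 0 for ageing of DN-Dmp53 against dSir2 controls. The median for ageing of dSir2 controls was 0.151.

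Replicate numbers elsewhere are shared without a known pairing. With the replicate number as a block the counts were 0 for DR in yw/w1118 at day 10, 0 for ageing of dSir2 controls, 1 for ageing of Canton-S DR flies, 2 for DR by age in Canton-S and 0 for ageing of DN-Dmp53 against dSir2 controls. Without the fold minimum, higher and lower counts that moved by over 1.5 times with the block were 3 and 10 for DR in yw/w1118 at day 10 and 1 and 0 for dSir2 at day 10. For ageing they were 3 and 1 in dSir2 controls, 2 and 2 in dSir2 flies, 0 and 0 in yw/w1118 DR flies, 2 and 3 in DN-Dmp53 controls, 1 and 0 in DN-Dmp53 flies, 0 and 1 in Canton-S controls and 1 and 0 in Canton-S DR flies. For differences they were 0 for DR by age in yw/w1118 and for dSir2 by age, 1 and 4 for ageing of Canton-S against dSir2 controls and 1 and 0 for ageing of DN-Dmp53 against dSir2 controls. Without the filter the count was 0 for Canton-S DR at day 40 and 0 for ageing of DN-Dmp53 against dSir2 controls. With all 14 groups in 1 fit it was 3 for DR by age in Canton-S, 2 for DR by background at day 40 and 3 for ageing of DN-Dmp53 against dSir2 controls. Without the fold minimum, the counts of higher and lower members that moved by over 1.5 times without the filter were 2 and 4 for Canton-S DR at day 40 (5 and 7 with it), 1 and 0 for dSir2 at day 10 (2 and 0), and, for ageing, 5 and 3 in dSir2 controls, 2 and 4 in dSir2 flies, 1 and 1 in yw/w1118 DR flies, 4 and 3 in DN-Dmp53 controls, 2 and 0 in DN-Dmp53 flies and 3 and 0 in Canton-S DR flies. With all groups in 1 fit they were 0 and 10 for yw/w1118 DR at day 40, 15 and 8 for Canton-S DR at day 40, 11 and 2 for dSir2 at day 10 and 1 and 0 for DN-Dmp53 at day 40. For ageing they were 6 and 18 in dSir2 flies and 7 and 16 in DN-Dmp53 controls. In DN-Dmp53 flies they were 11 and 3 and in Canton-S DR flies 21 and 2. For differences they were 11 and 2 for DR by background at day 40 and 2 and 0 for DR by age in yw/w1118. They were 7 and 2 for DR by age in Canton-S and 2 and 6 for ageing of DN-Dmp53 against dSir2 controls. Without the filter the counts for differences were 0 and 0 for DR by age in yw/w1118 and for dSir2 by age. They were 2 and 0 for DR by age in Canton-S. Ageing against dSir2 controls gave 1 and 5 for Canton-S controls and 1 and 0 for DN-Dmp53 controls. The methods' t-test gave 0 for Canton-S DR at day 40, before and after Benjamini-Hochberg adjustment.

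Leaving out 1 array gave 0 to 1 for DR at day 10 in both backgrounds, Canton-S DR at day 40, dSir2 at day 10, ageing of dSir2 controls, yw/w1118 DR flies and DN-Dmp53 controls, DR by age in yw/w1118 and DR by background at day 40. It gave 0 to 2 for ageing of dSir2 flies, dSir2 by age and ageing of DN-Dmp53 against dSir2 controls, 1 to 4 for ageing of Canton-S DR flies, and 1 to 3 for DR by age in Canton-S and for ageing of Canton-S against dSir2 controls. Of 125 calls on named members, 42 held without any 1 array and 72 held without the filter. With centring 107 held, with quantile normalizing again 101, with the block 48 and with all groups in 1 fit 110. The methods' t-test was run only for comparisons of 2 groups. At its p under 0.01, 65 of these calls held and 42 did not. After Benjamini-Hochberg adjustment 70 held and 37 did not. The causes of these changes were not tested. No member was at the floor on any array.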
